A study of Rattus norvegicus with 24 samples.

Results

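The nuclear-encoded subunits of the mitochondrial respiratory chain and ATP synthase were examined in day 7 skin wounds of diabetic rats. They were taken by name: Nduf followed by a, b, c, s or v and a number (complex I), Sdha, Sdhb, Sdhc and Sdhd (complex II), names that begin with Uqcr, and Cyc1 (complex III), names that begin with Cox and a digit between 4 and 8 (complex IV), names that begin with Atp5 (complex V, the ATP synthase), and Cycs (cytochrome c). The rule took 86 of 19963 targets: 37 of complex I, 4 of complex II, 9 of complex III, 18 of complex IV, 17 of complex V and cytochrome c itself. It used no measured value. All 86 names were found in the rat annotation GRCr8, 71 by symbol and 15 by synonym.

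The respiratory chain passes electrons from NADH (through complex I) and succinate (through complex II) to complex III, cytochrome c and complex IV, where oxygen is reduced. Complexes I, III and IV pump protons out of the matrix, and the ATP synthase uses the return flow to make ATP. In healing skin the chain serves fibroblasts and macrophages alike, and in mouse macrophages inflammatory activation is known to shift ATP production toward glycolysis while repair-associated states rely more on respiration.

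All animals were male Sprague-Dawley (SD) rats made diabetic with streptozotocin (STZ) at 5 weeks of age, so no group was free of diabetes. A splinted wound of 8 mm through the whole skin was labelled CuNZ@Gel, Gel or Sham. The labels speak of hydrogel treatment but give the composition of neither gel, and they do not say what a Sham wound received. Each treatment had 2 numbered specimens, each specimen 2 regions, and each region 2 areas, Segment 2 and Segment 1, captured by GeoMx spatial profiling of fixed, paraffin-embedded sections, which gave 24 areas. The labels name neither the fluorescent markers behind the segments nor the short region name "mac", and do not tell whether each number stands for 1 animal, so p-values measure the spread between these specimens only. Recovered probe counts ran from 86386 to 1476512 an area, and Segment 2 was the shallower area in 11 of 12 regions (86386 to 688520 counts, against 322155 to 1476512 in Segment 1). Values below are the deposited scaled signals, in which 1 unit of log2(value + 1) is a doubling for targets well above 1. Because each probe binds with its own efficiency, no target's level is set against another's.

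The labelled tissue is skin, and the markers listed for macrophages were above background for 3 of 6 genes (Cd68, Csf1r and Lyz2), against 5 of 6 for fibroblasts and 0 of 5 each for keratinocytes, endothelial cells and adipocytes. Of 10 skeletal muscle markers, 2 were above background, and the brown fat markers Ucp1 and Cidea were not. In such captured areas fewer cells of a type and less RNA per cell cannot be told apart. Summed fibroblast markers ran from 7181 to 12350 in CuNZ@Gel areas, from 1903 to 11180 in Gel areas and from 10400 to 32080 in Sham areas. Summed macrophage markers ran from 459.9 to 726.0 in CuNZ@Gel areas, from 378.9 to 723.6 in Gel areas and from 376.1 to 872.2 in Sham areas. These genes did not move together: Lyz2 averaged 286.6 in CuNZ@Gel and 192.9 in Gel, against 180.4 in Sham, and was called higher in CuNZ@Gel against Sham (log2 change 0.71, limma adjusted p = 0.0211), while Cd68 averaged 178.3, 197.6 and 234.0 in the same order. Summed smooth muscle markers, of which Acta2 alone was above background, ran from 294.3 to 574.0 in CuNZ@Gel areas and from 26.6 to 152.7 in Gel areas, against 384.0 to 843.8 in Sham areas. Acta2 itself averaged 390.9 in CuNZ@Gel, 72.7 in Gel and 581.6 in Sham. The sum is thus a reading of this gene and not of smooth muscle cells. Erythroid markers, 1 of 3 above background, summed to 14.02 to 191.5 in CuNZ@Gel areas and 16.4 to 75.6 in Gel areas, against 580.5 to 1763 in Sham areas. Single markers called lower against Sham were Lum (fibroblast), Cd2 (T cell) and Hba-a1 (erythroid) in both gels and Tnnt3 (skeletal muscle) in Gel. Cd3e (T cell) was called lower in CuNZ@Gel against Gel. Readable muscle and T cell markers went opposite ways in Gel. Tnnt3 averaged 10.1 in Gel against 20.8 in Sham, and Acta1 29.4 against 20.8. Cd2 averaged 8.27 in Gel against 18.5 in Sham, and Cd3e 15.4 against 7.71. The part of these markers in the results below was not tested.

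The nuclear genes of the chain are known to carry sites for NRF1, GABP and YY1 in their promoters. RefSeq promoter windows of GRCr8 (250 bases before to 50 after the start) were matched for 76 of the 86 members and searched on both strands for GCGCANGCG (NRF1), CCGGAAGT (GABP and other ETS factors) and AAGATGGCG (YY1). The NRF1 letters stood in 26.3% of member windows (20 of 76), against 13.3% of 4742 windows of targets above background and 5.8% of all 33469 windows. For YY1 the shares were 13.2% of member windows, 4.26% of windows of targets above background and 1.73% of all windows. For GABP they were 10.5% of member windows, 8.65% of windows of targets above background and 3.81% of all windows. At least 1 of the motifs was in 46.1% of member windows, against 23.4% of the windows of targets above background. In the 40 windows of members above background the shares were 30.0% for NRF1, 12.5% for YY1, 17.5% for GABP and 52.5% for any. In the 36 windows of members below background they were 22.2%, 13.9%, 2.78% and 38.9% in the same order. By complex, at least 1 motif was in 10 of 16 windows of complex V, 17 of 34 of complex I, 3 of 6 of complex III, 1 of 4 of complex II and 3 of 15 of complex IV. Of the 9 members called below, 7 had a window, and that of Atp5a1 was the one with a match. It is shown with 3 windows that hold the motifs in several arrangements. Capitals mark the matched letters (either strand), and no matches overlap in these windows (they do in those of 4 other members).
Uqcrc1, chr8:118467973-118468272, plus strand: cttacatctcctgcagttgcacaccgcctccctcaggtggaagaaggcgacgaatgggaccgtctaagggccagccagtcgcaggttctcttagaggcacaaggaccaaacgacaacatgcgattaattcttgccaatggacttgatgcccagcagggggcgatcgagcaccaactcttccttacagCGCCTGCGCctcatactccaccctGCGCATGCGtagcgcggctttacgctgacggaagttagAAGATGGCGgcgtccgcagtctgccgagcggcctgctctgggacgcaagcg
Ndufs6, chr1:31797150-31797449, plus strand: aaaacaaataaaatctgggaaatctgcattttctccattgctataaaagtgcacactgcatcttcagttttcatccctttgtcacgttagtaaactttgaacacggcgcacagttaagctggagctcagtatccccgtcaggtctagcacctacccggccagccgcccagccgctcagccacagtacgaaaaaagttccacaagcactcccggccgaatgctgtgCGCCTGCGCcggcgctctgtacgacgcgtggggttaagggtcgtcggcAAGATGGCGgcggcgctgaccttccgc
Ndufa13, chr16:19560276-19560575, plus strand: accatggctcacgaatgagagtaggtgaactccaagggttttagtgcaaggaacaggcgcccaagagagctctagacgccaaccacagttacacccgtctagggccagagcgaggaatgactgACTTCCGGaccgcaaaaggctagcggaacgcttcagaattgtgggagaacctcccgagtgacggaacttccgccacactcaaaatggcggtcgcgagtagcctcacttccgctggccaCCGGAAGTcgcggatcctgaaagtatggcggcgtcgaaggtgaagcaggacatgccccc
Atp5a1 (Atp5f1a), chr18:73567287-73567586, plus strand: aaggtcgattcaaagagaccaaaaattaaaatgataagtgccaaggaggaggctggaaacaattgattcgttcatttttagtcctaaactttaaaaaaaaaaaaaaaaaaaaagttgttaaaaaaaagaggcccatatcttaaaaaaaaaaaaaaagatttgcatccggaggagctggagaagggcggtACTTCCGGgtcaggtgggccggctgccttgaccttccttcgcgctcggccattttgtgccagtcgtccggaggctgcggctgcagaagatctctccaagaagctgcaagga
The Uqcrc1 window, of a core subunit of complex III, held 2 NRF1 matches and 1 YY1 match. The Ndufs6 window, of a zinc-binding complex I subunit, held 1 NRF1 and 1 YY1 match, the Ndufa13 window held 2 GABP matches, and the window of Atp5a1 (the α subunit of the catalytic head of the ATP synthase) held 1 GABP match. A match is a description of the letters and not a site that was shown to be bound.

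Many core subunits of the chain were not readable in these areas. A member was above background when its value exceeded that of 99% of 1127 olfactory and vomeronasal receptor targets in the same area (11.4 to 21.4 across areas) in at least 4 areas. This held for 46 of the 86 members, 26 of them in every area, while 38 exceeded it in no area. The readable share was 19 of 37 for complex I, 2 of 4 for complex II, 7 of 9 for complex III, 7 of 18 for complex IV, 11 of 17 for complex V and 0 of 1 for cytochrome c. Those above background in no area included subunits that nearly every cell uses: Cox4i1, Cox5b, Cox6a1, Cox6b1 and Cox6c of complex IV, Cyc1 and Cycs, the flavoprotein Sdha and the membrane anchor Sdhc, Ndufv1 and Ndufv2 of the NADH-oxidising tip of complex I, and Atp5o, Atp5pb and Atp5d of the ATP synthase. Cox4i1, for instance, had a median value of 3.56 over the 24 areas and never exceeded 6.90, and Cycs had a median of 4.09 and never exceeded 12.3. A poor probe and low RNA cannot be told apart for these members. A pair of the 46 passed without an area in every treatment, so that the filter itself favours a difference: Ndufa8 exceeded background in 4 Sham areas and in no gel area, and Cox4i2 in 4 CuNZ@Gel and 3 Gel areas and in no Sham area. Counts and means below are therefore also given for the 44 members without them. For testing, 84 members passed the filter (a value over the negative probe's in 4 areas or more), and Atp5pb and Cox6c did not.

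The 46 members above background stood lower in both gel treatments than in Sham wounds. Their mean level, in log2(value + 1), was 5.18 ± 0.10 in CuNZ@Gel, 5.26 ± 0.13 in Gel and 5.55 ± 0.04 in Sham (SD, n = 2 specimens each). The 8 CuNZ@Gel areas ran from 4.63 to 5.37 and the 8 Gel areas from 5.04 to 5.61, against 5.43 to 5.65 in Sham. All CuNZ@Gel areas thus lay under all Sham areas, and the Gel areas overlapped them through 1 specimen 2 region whose Segment 1 and Segment 2 areas reached 5.61 and 5.48. The same mean over 5165 other targets of like level was 4.57 ± 0.07 in CuNZ@Gel, 4.56 ± 0.07 in Gel and 4.70 ± 0.004 in Sham, so part of the difference is shared by targets outside the chain. The members' difference from Sham was -0.37 in CuNZ@Gel and -0.29 in Gel, both with and without Ndufa8 and Cox4i2.

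**Figure D1:**
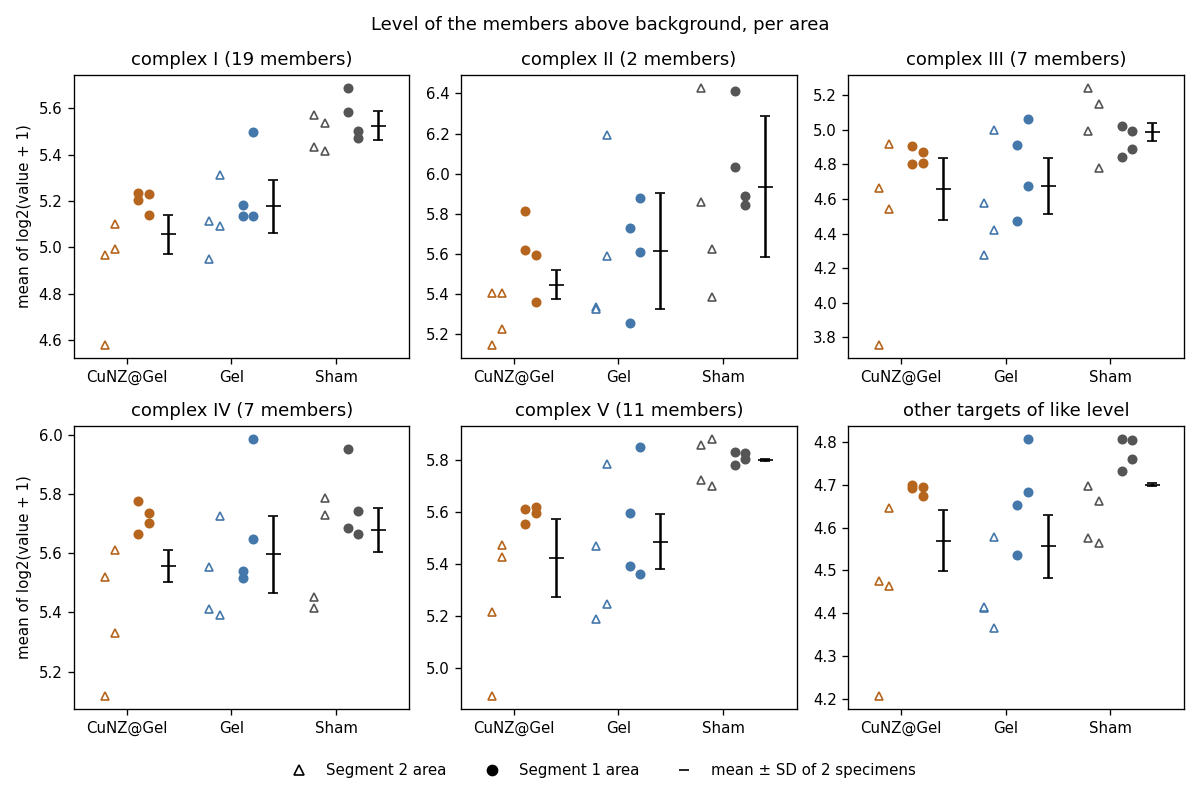
Mean log2(value + 1) of the members above background of each complex, and of other targets of like level, in each of the 24 areas. Open triangles are Segment 2 areas, filled circles Segment 1 areas, and the bar gives the mean ± SD of the 2 specimens of a treatment. Complex I and complex V areas of CuNZ@Gel wounds all lie under those of Sham wounds, while complex IV areas overlap in all treatments. Complex I includes Ndufa8, which counts as readable through Sham areas alone.

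The mean levels of complex I, with Ndufa8 among its members, and of complex V separated CuNZ@Gel from Sham in every area. Ndufa8 counts as readable through Sham areas alone, so the filter favours part of the complex I gap. Area ranges of complex I without Ndufa8 are not given. The 19 complex I members above background averaged 5.06 ± 0.08 in CuNZ@Gel and 5.18 ± 0.12 in Gel, against 5.53 ± 0.06 in Sham (SD, n = 2 each). The 8 CuNZ@Gel areas ran from 4.58 to 5.24 and the 8 Gel areas from 4.95 to 5.50, against 5.42 to 5.69 in Sham. Complex V, with 11 members, averaged 5.42 ± 0.15 in CuNZ@Gel, 5.49 ± 0.11 in Gel and 5.80 ± 0.003 in Sham, with areas from 4.89 to 5.62, 5.19 to 5.85 and 5.70 to 5.88 in that order. Complex III, with 7 members, averaged 4.66 ± 0.18 in CuNZ@Gel, 4.67 ± 0.16 in Gel and 4.99 ± 0.05 in Sham, and its areas overlapped between all 3 treatments. The 2 readable subunits of complex II averaged 5.45 ± 0.07 in CuNZ@Gel, 5.62 ± 0.29 in Gel and 5.93 ± 0.35 in Sham, and its areas also overlapped between all 3 treatments. Complex IV, with 7 members, averaged 5.56 ± 0.05 in CuNZ@Gel, 5.60 ± 0.13 in Gel and 5.68 ± 0.07 in Sham. The direction of complex IV depended on the scaling, since its differences from Sham of -0.12 in CuNZ@Gel and -0.08 in Gel became 0.06 and 0.14 after quantile normalization, and 0.02 and 0.07 after scaling each area to its median. The differences also depended on which genes were counted: they were -0.19 in CuNZ@Gel and -0.20 in Gel without Cox4i2, and -0.18 and -0.14 with Ndufa4. Ndufa4 is named as a complex I subunit but is now placed with complex IV. Over all complex IV members whatever their level, the Gel difference turned sign, at 0.028. For complex I the corresponding differences kept their sign, at -0.47 and -0.35 as deposited, -0.29 and -0.13 after quantile normalization, and -0.32 and -0.20 after median scaling. They were -0.42 in CuNZ@Gel and -0.29 in Gel without Ndufa8, and -0.46 and -0.34 without Ndufa4.

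Member by member, CuNZ@Gel lay below Sham for 42 of the 46 members above background, with a median log2 change of -0.38, against -0.15 for the other targets of like level, of which 69.2% lay below. Both CuNZ@Gel specimens lay below both Sham specimens for 38 of the 46, which is 82.6%, beside 40.7% of the like-level targets. Gel lay below Sham for 39 of the 46, with a median of -0.27, against -0.14 for the like-level targets, of which 67.1% lay below. Both Gel specimens lay below both Sham specimens for 30 of the 46, or 65.2%, beside 39.1% of the like-level targets. Of the 44 members without Ndufa8 and Cox4i2, 41 lay below Sham in CuNZ@Gel (93.2%) and 38 in Gel (86.4%). The like-level targets with an area above background in every treatment lay below in 70.5% and 68.6%. Both specimens lay below both Sham specimens for 37 of the 44 in CuNZ@Gel (84.1%) and 29 in Gel (65.9%), beside 41.4% and 39.6% of those like-level targets. The 2 comparisons share the Sham specimens, and the members share all specimens, so these counts are descriptions and not independent tests. The like-level targets span the members' range of levels but stood lower on average (4.70 against 5.55 log2 units in Sham). Their shares are thus not matched to the members level by level. Of the 38 tested members below background, 21 lay below Sham in CuNZ@Gel (median log2 change -0.04) and 17 in Gel (median 0.03). By area, 34 to 43 of the 46 readable members lay below the Sham mean of the same segment in CuNZ@Gel areas and 21 to 42 in Gel areas, against 13 to 33 in Sham areas themselves. The share of like-level targets below that mean was 50.2 to 71.8% in CuNZ@Gel areas and 44.8 to 69.2% in Gel areas, against 39.7 to 56.8% in Sham areas.

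**Figure D2:**
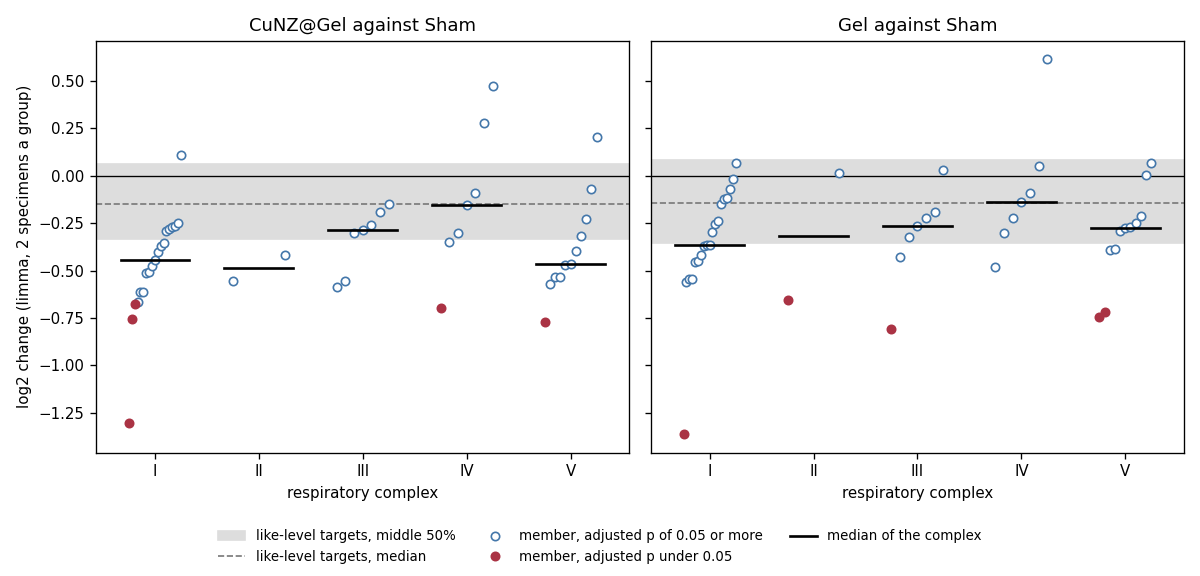
Log2 change of each of the 46 members above background, by complex, for CuNZ@Gel against Sham (left) and Gel against Sham (right), with limma over 2 specimens a group. Filled points have an adjusted p under 0.05, black bars are complex medians, and the grey band and dashed line are the middle 50% and the median of 5165 other targets of like level. Complex medians of I, II, III and V lie under the dashed line in both panels, and that of complex IV lies close to it.

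Level mattered for this reading, because highly read targets of any kind lay lower in both gels. The share of other targets below Sham in CuNZ@Gel was 56.0% in the class from 3 to 4 log2 units. It was 84.2% in the class from 6 to 7.1. In Gel these shares were 51.3% and 83.5%. In the class from 6 to 7.1 log2 units, 12 of 12 members lay below Sham in CuNZ@Gel with a median of -0.50, against -0.26 for 455 other targets of that class. In the class from 5 to 6 the medians were -0.36 for 16 members and -0.23 for 1105 others, and in the class from 4 to 5 they were -0.40 for 13 members and -0.13 for 2087 others. The members thus stood lower than other targets of their class at each of these levels in CuNZ@Gel. In these 3 classes the gap was narrower in Gel: -0.38 for members and -0.29 for others in the class from 6 to 7.1, -0.25 and -0.22 in the class from 5 to 6, and -0.27 and -0.14 in the class from 4 to 5. After quantile normalization the Gel medians of the members were -0.05, 0.02 and -0.11 in these classes, from the highest level down, against 0.02, 0.01 and 0.0009 for others. The CuNZ@Gel medians remained negative at -0.22, -0.15 and -0.32, against 0.01, -0.01 and -0.02 for others. The class from 3 to 4, with 5 members that include Ndufa8 and Cox4i2, did not show the narrower gap: the medians were -0.23 for members and -0.05 for others in CuNZ@Gel, and -0.22 and -0.01 in Gel. The classes were drawn after the values had been seen.

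**Figure D3:**
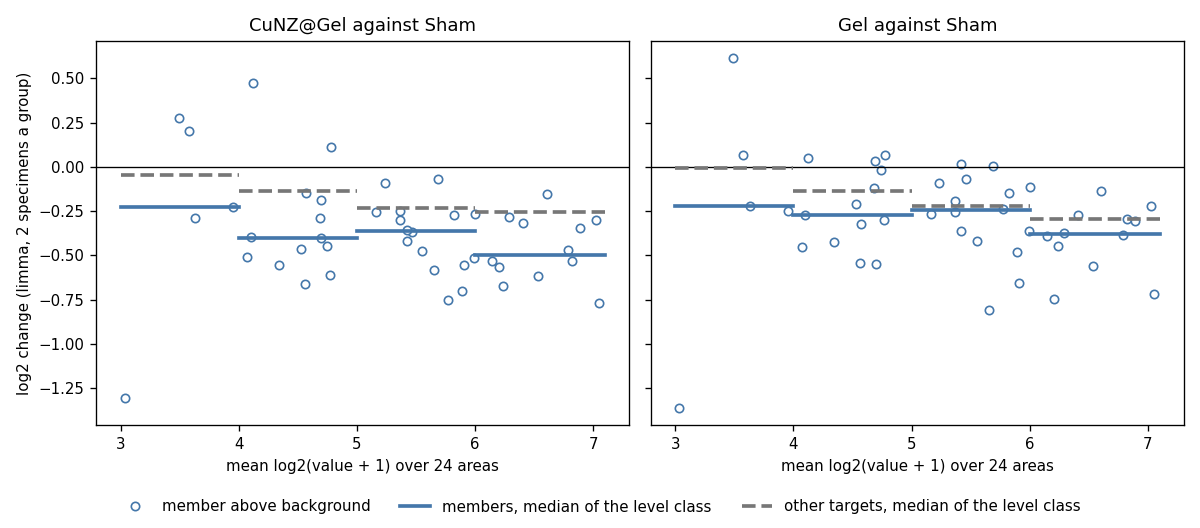
Log2 change of the 46 members above background against their mean log2(value + 1) over 24 areas, for CuNZ@Gel against Sham (left) and Gel against Sham (right). Solid bars are the members' medians and dashed bars the medians of other targets above background in 4 classes of level. The gap between the bars is wider in the left panel in each class from 4 upward.

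Single members were called with limma at a Benjamini-Hochberg adjusted p under 0.05 over 19728 targets. CuNZ@Gel against Sham called 5 members lower (Ndufa8, Ndufa3, Ndufb11, Cox7b and Atp5a1) and 0 higher. All targets tested were called lower in 0.988% of cases and higher in 0.324%, and the like-level targets were called lower in 2.92%. Gel against Sham also called 5 members lower (Ndufa8, Sdhb, Uqcrb, Atp5a1 and Atp5e) and 1 higher (Ndufs3), against 1.8% of all targets called lower, 0.618% called higher and 5.52% of like-level targets called lower. Without Ndufa8, which counts as readable through Sham areas alone, 4 members were called lower in each gel against Sham. The like-level targets stood lower on average than the members, so their called shares are not matched level by level. CuNZ@Gel against Gel called 1 member lower, Ndufs3, and 0 higher, against 0.319% of all targets called lower, 0.623% called higher and 1.03% of like-level targets called lower. The SD that limma used for a member (0.181 to 0.307, median 0.249) leaned on all targets, while the members' own SDs of specimen means ran from 0.0307 to 0.538 with a median of 0.195. Calls of single members depended on that pooling: with eBayes without trend and robust, 1 member was called in CuNZ@Gel against Sham and 2 in Gel against Sham. On counts summed per specimen, edgeR called 1 member in CuNZ@Gel against Sham and 2 in Gel against Sham, and DESeq2 called 0 and 1.

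Ndufa8, an accessory subunit of the membrane arm of complex I that carries paired disulfides, had the lowest values relative to Sham. Its values had a lowest, median and highest of 2.83, 5.49 and 8.43 in CuNZ@Gel areas and of 2.73, 5.18 and 8.18 in Gel areas, against 8.18, 13.9 and 22.5 in Sham areas. The gel areas met the Sham areas only at their highest values. It exceeded background in 4 areas, all of them Sham. It fell in CuNZ@Gel with a log2 change of -1.30 (SE 0.29, limma adjusted p = 0.00253) and in Gel with -1.36 (SE 0.29, limma adjusted p = 0.000557). The counts behind it were small, with 53 in all 8 CuNZ@Gel areas, 52 in Gel and 177 in Sham. Both calls were lost in Segment 2 alone, at changes of -1.28 in CuNZ@Gel and -0.90 in Gel, and after thinning all areas to equal depth, at -0.99 and -0.80. The thinned counts were also scaled by area totals with a different offset, so their loss is not read as an effect of depth. The CuNZ@Gel call was also lost without CuNZ@Gel specimen 1 (-1.16, limma adjusted p = 0.15) or Sham specimen 2 (-1.23, limma adjusted p = 0.0516).

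Ndufs3, a core subunit of the arm of complex I that carries the iron-sulfur clusters, went the other way in Gel wounds. Its areas had a lowest, median and highest value of 1.36, 3.45 and 5.66 in CuNZ@Gel, of 5.52, 10.8 and 19.1 in Gel, and of 1.44, 2.98 and 6.13 in Sham. Gel areas lay above nearly all others, with a small overlap at the lowest Gel area. It rose in Gel against Sham by a log2 change of 1.56 (SE 0.30, limma adjusted p = 7.9e-05), and it fell in CuNZ@Gel against Gel by 1.65 (SE 0.30, limma adjusted p = 4.2e-05). CuNZ@Gel against Sham was -0.09 (limma adjusted p = 0.95). It counts as below background, since 3 areas exceeded it, all in Gel, and its counts were 32 in CuNZ@Gel, 110 in Gel and 40 in Sham over 8 areas each. Thinning to equal depth, which also changed the scaling and the offset, ended both calls. The changes were then 0.15 in Gel against Sham and -0.15 in CuNZ@Gel against Gel. Whether depth, scaling or offset accounts for this was not tested. The CuNZ@Gel against Gel call was also lost in Segment 1 alone and with DESeq2.

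Atp5a1, the α subunit of the ATP synthase head, fell in both gels. Its lowest, median and highest values were 76.7, 114.7 and 124.5 in CuNZ@Gel areas and 78.7, 109.0 and 176.4 in Gel areas, against 152.8, 193.9 and 220.8 in Sham areas. All CuNZ@Gel areas lay under all Sham areas, and the Gel areas overlapped them through 1 region of specimen 2, at 176.4 in Segment 1 and 165.6 in Segment 2. The log2 change was -0.77 in CuNZ@Gel (SE 0.18, limma adjusted p = 0.00782) and -0.72 in Gel (SE 0.18, limma adjusted p = 0.00935). Thinning to equal depth, a single random draw, left changes of -0.05 in CuNZ@Gel and -0.01 in Gel. On unthinned counts summed per specimen, edgeR gave -0.70 in CuNZ@Gel and -0.66 in Gel, neither of them called. Why the thinned values differ was not tested, so they are not read as an effect of depth. Both calls were lost in Segment 1 alone. Both calls were also lost without Sham specimen 1 (-0.64 in CuNZ@Gel and -0.59 in Gel), the CuNZ@Gel call without either CuNZ@Gel specimen (-0.69 and -0.86) and the Gel call without Gel specimen 1 (-0.53) and with quantile normalization (-0.39). Atp5e, the small ε subunit of the central stalk, had values of 54.5, 67.6 and 77.7 in CuNZ@Gel areas (lowest, median, highest) and of 36.8, 62.2 and 82.5 in Gel areas, against 89.5, 93.6 and 125.7 in Sham areas. Both gels lay under every Sham area. It fell in Gel by 0.75 (SE 0.19, limma adjusted p = 0.00729), and the CuNZ@Gel change was -0.57 (limma adjusted p = 0.13). The Gel call was lost without Gel specimen 1 (-0.70, limma adjusted p = 0.0573) or either Sham specimen (-0.76 and -0.74), with quantile normalization (-0.43), and in Segment 2 alone (-0.88) or Segment 1 alone (-0.61). The catalytic β subunit Atp5b was at 96.6 ± 13.6 in CuNZ@Gel and 114.3 ± 23.6 in Gel, against 137.4 ± 17.8 in Sham (SD, n = 2 each), and was not called in either comparison.

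Some members had all 8 areas of a gel below all 8 Sham areas. In CuNZ@Gel this held for 5 of 46 members (Atp5a1, Atp5e, Cox7b, Ndufa3 and Ndufa4), or 10.9%, beside 1.82% of like-level targets. In Gel it held for Atp5e only, or 2.17% of the 46, beside 1.9% of like-level targets. The difference between these counts was not tested, and areas of a specimen share their source. The like-level targets also stood lower on average than the members, so these shares are not matched level by level.

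Ndufa3, an accessory subunit of the membrane arm of complex I, had values of 33.7, 62.7 and 75.5 in CuNZ@Gel areas (lowest, median, highest) and of 55.8, 70.1 and 98.1 in Gel areas, against 75.6, 93.0 and 124.1 in Sham areas. All CuNZ@Gel areas lay under all Sham areas, the nearest by a narrow margin. It fell in CuNZ@Gel by 0.67 on the log2 scale (SE 0.19, limma adjusted p = 0.0394), and its change in Gel was -0.45 (limma adjusted p = 0.27). Ndufb11, an accessory subunit of the membrane arm, had values of 9.20, 49.0 and 58.9 in CuNZ@Gel areas and of 40.2, 57.2 and 88.8 in Gel areas, against 55.2, 67.7 and 82.8 in Sham areas. Here both gels overlapped Sham. It fell in CuNZ@Gel by 0.75 (SE 0.19, limma adjusted p = 0.0202). In the shallowest of all areas (CuNZ@Gel specimen 1 region 1 Segment 2) 3 counts were recorded for it, and without that area its call was lost (-0.46, limma adjusted p = 0.31), as it was without CuNZ@Gel specimen 1 (-0.52) or Sham specimen 1 (-0.64). The call of Ndufa3 was lost without that area (-0.56, limma adjusted p = 0.12) and without any of the CuNZ@Gel or Sham specimens (-0.84 to -0.51). Quantile normalization also ended the calls of Ndufb11 (-0.54) and Ndufa3 (-0.41), median scaling those of Ndufb11 (-0.61) and Ndufa3 (-0.52), and Ndufb11 was not called in Segment 1 alone (-0.37) or over 24 areas with specimen as a random block (limma adjusted p = 0.0769). Ndufa3 was not called in Segment 2 alone (-0.76) or Segment 1 alone (-0.59).

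Cox7b, a small subunit of complex IV, had values of 24.5, 51.6 and 58.5 in CuNZ@Gel areas (lowest, median, highest) and of 41.4, 50.4 and 85.9 in Gel areas, against 62.5, 79.1 and 92.0 in Sham areas. CuNZ@Gel areas lay under all Sham areas, and Gel areas overlapped them. It fell in CuNZ@Gel by 0.70 (SE 0.19, limma adjusted p = 0.0354) and stood at -0.48 in Gel (limma adjusted p = 0.23). Its call, too, was lost without the shallowest area (-0.56) and without any of the CuNZ@Gel or Sham specimens (-0.78 to -0.62), with quantile normalization (-0.45), with median scaling (-0.55) and in Segment 2 alone (-0.95) or Segment 1 alone (-0.45). Uqcrb, which binds ubiquinone within complex III, had values of 30.7, 49.1 and 51.8 in CuNZ@Gel areas and of 26.6, 38.2 and 57.2 in Gel areas, against 49.1, 69.8 and 85.9 in Sham areas. The groups overlapped between the highest gel and the lowest Sham areas. It fell in Gel by 0.81 (SE 0.19, limma adjusted p = 0.00443), and its change in CuNZ@Gel was -0.58 (limma adjusted p = 0.13). The Gel call was lost without Gel specimen 1 (-0.69) or Sham specimen 1 (-0.64) and with quantile normalization (-0.54). Sdhb, the iron-sulfur subunit of complex II, had values of 41.5, 52.9 and 69.5 in CuNZ@Gel areas and of 36.8, 49.1 and 79.7 in Gel areas, against 63.4, 72.1 and 105.5 in Sham areas, with overlap in both gels. It fell in Gel by 0.65 (SE 0.19, limma adjusted p = 0.0408). Its own SD of 0.272 was larger than the 0.193 used, and leaving out any specimen but Gel specimen 2 and Sham specimen 2 ended the call (-0.65 to -0.38), as did quantile normalization (-0.37), median scaling (-0.50) and Segment 2 alone (-0.60). The change in CuNZ@Gel was -0.56 (limma adjusted p = 0.16). Sdhd, a membrane anchor of the same complex, did not follow it, with changes of -0.42 in CuNZ@Gel and 0.02 in Gel.

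**Figure D4:**
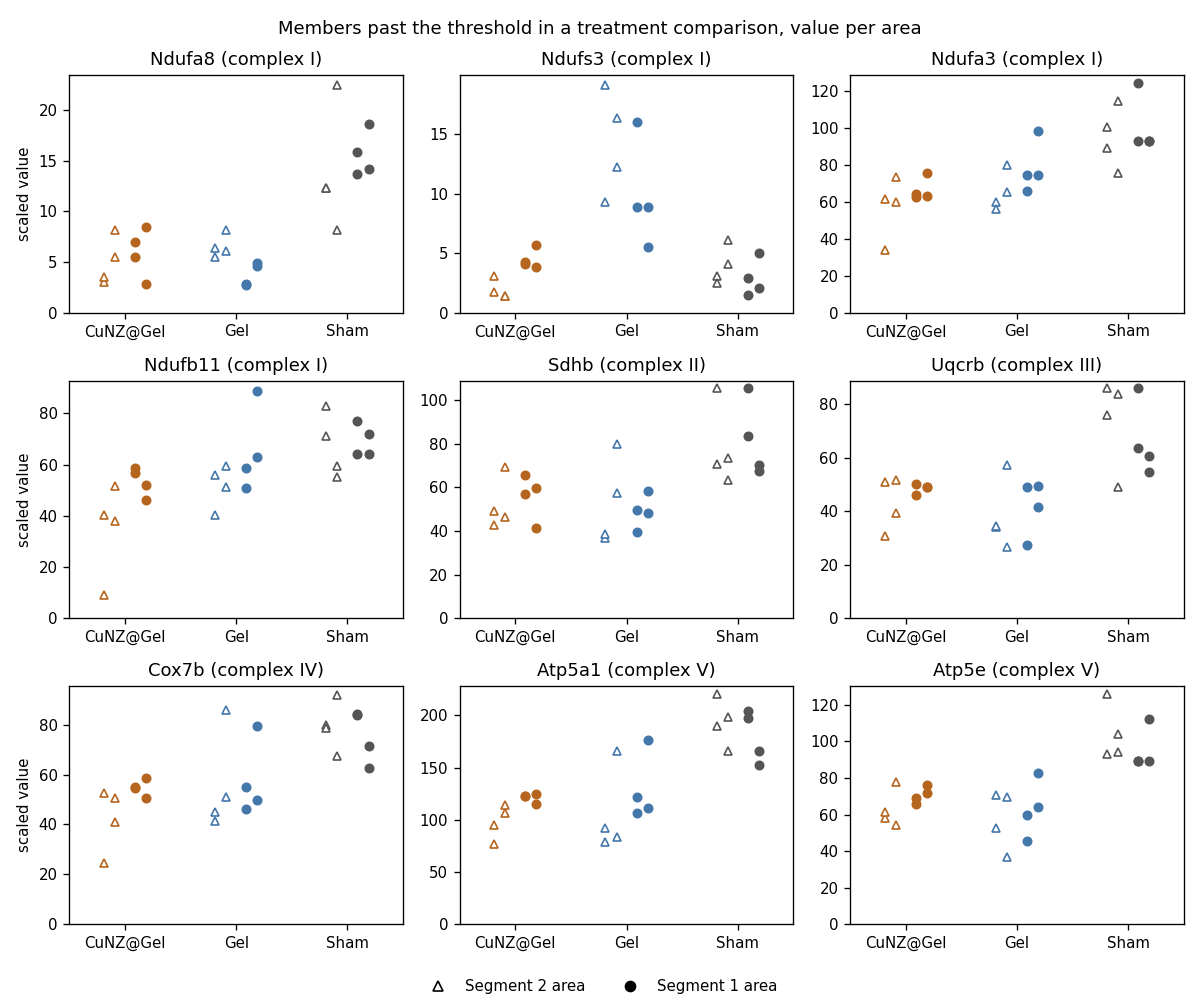
Deposited scaled value of the 9 members past the threshold in at least 1 treatment comparison, in each of the 24 areas (8 a treatment; open triangles are Segment 2, filled circles Segment 1). Ndufs3 is the member whose Gel areas stand highest, and Atp5e is the one whose CuNZ@Gel and Gel areas all lie under its Sham areas.

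Among complex I members that were not called, the lowest changes in CuNZ@Gel against Sham were those of Ndufs1, the large core subunit (-0.66, limma adjusted p = 0.12), Ndufa4 (-0.62, limma adjusted p = 0.07) and Ndufc2 (-0.61, limma adjusted p = 0.16). Ndufa4 areas ran from 52.1 to 95.4 in CuNZ@Gel and from 58.4 to 128.8 in Gel, against 107.9 to 134.9 in Sham. Ndufa7 was the complex I member above background with a positive change in both, at 0.11 in CuNZ@Gel and 0.07 in Gel. In CuNZ@Gel against Gel the lowest change among readable members was that of Ndufb11 (-0.51, limma adjusted p = 0.37), followed by Sdhd (-0.43) and Ndufs4 (-0.43), and the highest was that of Cox7c (0.42, limma adjusted p = 0.81). In complex III the lowest change in CuNZ@Gel against Sham after Uqcrb was that of Uqcr11 (-0.55) and in complex V after Atp5a1 those of Atp5e and Atp5b, while Cox7c stood at 0.47 (limma adjusted p = 0.47) and Atp5mpl, a small membrane subunit of the ATP synthase, at 0.20. The median over the 46 members in CuNZ@Gel against Gel was -0.07, against -0.001 for like-level targets, and 10 of 46 (21.7%) had both CuNZ@Gel specimens below both Gel specimens, beside 19.8% of like-level targets.

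Several chain subunits exist as isoforms with tissue preferences, and these were read unevenly. Cox4i2, the isoform associated with lung and low oxygen, was above background in 7 areas and averaged 11.3 ± 1.76 in CuNZ@Gel and 13.6 ± 3.22 in Gel, against 8.77 ± 1.06 in Sham (SD, n = 2 each). Its change of 0.61 in Gel was not called (limma adjusted p = 0.30), and Cox4i1, its common counterpart, was below background throughout. Cox7a2 averaged 119.4 ± 6.55 in CuNZ@Gel and 127.6 ± 0.34 in Gel, against 147.1 ± 15.5 in Sham, and the supercomplex-associated Cox7a2l averaged 36.4 ± 2.92, 36.8 ± 2.19 and 39.1 ± 3.07 in the same order, while the muscle isoform Cox7a1 was below background. Cox8a averaged 93.5 ± 0.33 in CuNZ@Gel and 95.1 ± 11.99 in Gel, against 103.9 ± 9.68 in Sham, and Cox8b and Cox8c were below background, as were Cox6a1, Cox6a2, Cox6b1 and Cox6b2. The 3 genes for the c subunit of the rotor ring, which encode the same mature peptide, were all readable. On the log2 scale Atp5g1 stood at -0.07 in CuNZ@Gel and 0.003 in Gel, Atp5g2 at -0.39 and -0.27, and Atp5g3 at -0.32 and -0.27, none of them called.

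Between segments no member was called by limma, against 1.93% of all targets called either way, while 17 members had an unadjusted p under 0.05, beside 15.7% of all targets tested. edgeR and DESeq2 were run on the treatment comparisons only. Segment 2 lay below Segment 1 for 42 of the 46 members above background (median log2 change -0.15), and for 88.1% of like-level targets (median -0.20). The lowest changes were those of Cox4i2 (-0.65, limma adjusted p = 0.069), Uqcrfs1, the Rieske iron-sulfur protein of complex III (-0.48, limma adjusted p = 0.09), and Ndufb11 (-0.40, limma adjusted p = 0.10). After quantile normalization the members' median was 0.005, so no direction is read from it.

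The segment difference within each treatment was -0.25 in CuNZ@Gel, -0.14 in Gel and -0.03 in Sham (median over the 46 members), against -0.23, -0.22 and -0.13 for like-level targets in the same order. The treatment by segment interaction called 0 members by limma (adjusted p under 0.05), against 0.0507% of all targets, and 7 members had an unadjusted p under 0.05, beside 5.65% of all targets tested. The smallest interaction p was that of Atp5b, whose Segment 2 minus Segment 1 difference was -0.57 in CuNZ@Gel, -0.36 in Gel and 0.12 in Sham (limma adjusted p = 0.70). Within Segment 2 alone, the median change of the 46 members was -0.51 in CuNZ@Gel against Sham and -0.36 in Gel against Sham, and within Segment 1 alone it was -0.26 and -0.22. Their like-level medians were -0.20 and -0.19 in Segment 2, and -0.10 in both comparisons in Segment 1.

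Other genes of mitochondrial metabolism were taken from lists and described over their members above background. Carriers and channels of the inner and outer membrane (6 of 9 readable) had a median log2 change of -0.48 in CuNZ@Gel and -0.34 in Gel against Sham, with 0 called. Mitochondrial fatty acid oxidation (8 of 12 readable) had medians of -0.49 in CuNZ@Gel and -0.26 in Gel, and 1 gene fell, Echs1, an enoyl-CoA hydratase (CuNZ@Gel against Sham, log2 change -0.77, SE 0.21, limma adjusted p = 0.0373). Pyruvate entry and the citric acid cycle (11 of 20 readable) had medians of -0.30 in CuNZ@Gel and -0.26 in Gel, and 1 gene fell, Mpc1, a subunit of the mitochondrial pyruvate carrier. Mpc1 averaged 28.1 ± 2.26 in CuNZ@Gel and 35.4 ± 2.72 in Gel, against 46.9 ± 6.86 in Sham (SD, n = 2 each), with a log2 change of -0.85 in CuNZ@Gel against Sham (SE 0.20, limma adjusted p = 0.00819). These calls are 1 of 12 fatty acid oxidation genes and 1 of 20 pyruvate and citric acid cycle genes. In the same comparison 0.988% of all targets tested and 2.92% of like-level targets were called lower. Assembly factors of complexes II to V (18 of 33 readable) had medians of -0.35 in CuNZ@Gel and -0.17 in Gel with 0 called, and those of complex I (3 of 15 readable) had medians of 0.15 and -0.01 with 0 called.

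Mitochondrial ribosomal proteins (38 of 78 readable) had medians of -0.25 in CuNZ@Gel and -0.18 in Gel, and Mrps16 fell in Gel against Sham (-0.68, SE 0.20, limma adjusted p = 0.0347). In that comparison 1 of the 78 was called lower, beside 1.8% of all targets tested and 5.52% of like-level targets. The import and cristae list (13 of 21 readable) had medians of -0.24 in CuNZ@Gel and -0.11 in Gel with 0 called. Between segments Immt, a cristae junction protein, was lower in Segment 2 (-0.46, SE 0.12, limma adjusted p = 0.0256). Tomm70a, an import receptor that was below background in every area, was higher (1.07, limma adjusted p = 0.00128). Of 19728 targets tested, 67 were called higher and 314 lower in Segment 2. Of the 5483 above background, 0 were called higher and 305 lower. The smallest value, 1 count, was worth up to 0.943 value units in Segment 1 areas and up to 3.07 in Segment 2 areas. Its part in the Tomm70a call was not tested. Regulators of mitochondrial biogenesis and mitochondrial DNA expression, the NRF1, GABP and YY1 genes among them (8 of 17 readable), had medians of -0.24 in CuNZ@Gel and -0.05 in Gel with 0 called. Other respiratory proteins outside the naming rule (3 of 8 readable) had medians of -0.30 in CuNZ@Gel and -0.18 in Gel with 0 called. The like-level median of -0.15 in CuNZ@Gel and -0.14 in Gel stands beside all of these. It was taken over the level range of the chain members, and the lists were not matched to it by level.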

How the data were processed

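Each area's values are a signal that the authors deposited, tag counts divided by 1 factor per area so that upper quartiles match in nearly all areas (read from the values). Per the labels' protocols these were GeoMx hybridisation counts from fixed sections, and no source used here names the counting software or the scaling step. From 99.98 to 99.995% of values were whole multiples of the area's smallest step (tolerance 0.01 counts), so counts were recovered, with area totals from 86386 to 1476512 (median 340374). Each area's smallest value was taken as 1 count, which is the floor of these data. That floor was worth 0.24 to 3.07 value units, depending on the area. From 0.11 to 46.9% of an area's targets stood at it, with the highest share in the shallowest area. Its effect on the fits was not tested. Captured areas were averaged as log2(value + 1) per specimen, then fitted with limma 3.58.1 in R 4.3.3 (eBayes with trend and robust, 6 specimens), with Benjamini-Hochberg adjustment over 19728 targets. The segment and interaction fits kept the specimen as a block. edgeR 4.0.16 and DESeq2 1.42.0 on counts summed per specimen, other scalings, filters and pseudocounts, single segments, thinned counts and omitted specimens were alternatives. Thinned counts were divided by the area total in place of the deposited scaling, with 1 thinned count as the offset. That setting thus changes depth, scaling and offset together. Omitting 2 single areas, keeping only members above background in every treatment and moving Ndufa4 to complex IV were chosen after seeing the data.

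Named members were those past the threshold, the 2 highest and 2 lowest changes of each complex, and the isoform sets, of which those a result turns on are printed. The members and lists were chosen with earlier results of these data known. Like-level targets are those above background with a mean between 3.03 and 7.05 log2 units. The fits were tested on simulated data whose changes were larger than those of most members called here. That test does not cover the smaller changes. A protein table was not used here.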

Additional observations from a re-analysis of the deposited data

Results flagged for a closer look

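In 5 of 90 sets of 4 areas (1 treatment and segment each), 1 area stood far from the other areas by Dixon's 95% criterion, and chance flags about 1 in 20. The mean level of complex I reached 5.497 log2 units in the Segment 1 area of Gel specimen 2 region 1, where the next was 5.18. In the Segment 2 area of the same region, Atp5a1 was at 165.6, where the next was 92.7. Atp5e was at 112.1 in the Segment 1 area of Sham specimen 2 region 2, where the next was 89.5. Ndufa3 was at 75.47 in the Segment 1 area of CuNZ@Gel specimen 2 region 1, where the next was 64.2, and at 124.1 in the Segment 1 area of Sham specimen 1 region 2, where the next was 93.1. The causes were not tested.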

How the results depend on the processing

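Under all alternatives run the median change of the 46 members stayed negative in both gels against Sham, while counts of called members moved with most settings; unless a construction shows it, the cause was not tested. In CuNZ@Gel against Sham, members called were 5 as reported, 13 over 24 areas with specimen as a random block, 8 with only the 2 treatments, 2 in Segment 2 alone, with median scaling, with quantile normalization and without the shallowest area, 1 in Segment 1 alone, with edgeR and without trend and robust, 0 with DESeq2 and with counts thinned to the shallowest area, and 0 to 8 with a specimen left out. In Gel against Sham they were 6 as reported, 3 in Segment 2 alone, 2 with edgeR, quantile normalization, and without trend and robust, 1 with DESeq2, 0 with thinned counts, and 2 to 8 with a specimen left out. In CuNZ@Gel against Gel they were 1 as reported, 2 with quantile normalization, and 0 with DESeq2, Segment 1 alone, thinned counts, and only targets above background (which leaves Ndufs3 out). Between segments they were 0 as reported, 2 with median scaling, only targets above background and region as a block, and 0 to 3 with a specimen left out; the interaction gave 0 to 1. DESeq2 gave no adjusted p for 37 members in each gel against Sham and 34 in CuNZ@Gel against Gel. In the random-block fit the correlation of areas within a specimen was 0.0053. That fit thus took the 24 areas nearly as independent replicates of treatment, and its larger count is not read as a result. Shares of all targets called under each alternative are not given.

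The median change in CuNZ@Gel against Sham was -0.26 in Segment 1, -0.51 in Segment 2, -0.22 thinned, -0.24 with median scaling, -0.20 with quantile normalization, and -0.48 to -0.36 with a specimen left out. In Gel against Sham it was -0.0827 thinned, -0.12 with median scaling, -0.054 with quantile normalization, and -0.38 to -0.19 with a specimen left out. Between segments it was 0.19 thinned, -0.0021 with median scaling and 0.0051 with quantile normalization. Over all members whatever their level, median scaling and quantile normalization in that order, the mean level in CuNZ@Gel minus Sham was -0.18, -0.23 and -0.19 for all complexes, -0.18, -0.32 and -0.29 for complex I and -0.25, -0.23 and -0.18 for complex V, and in Gel minus Sham -0.10, -0.14 and -0.078, then -0.10, -0.20 and -0.13, then -0.23, -0.16 and -0.0858. Complex IV was at 0.025 and 0.064 in CuNZ@Gel with the 2 scalings, and at 0.028, 0.070 and 0.14 in Gel; without Cox4i2 it was -0.19 in CuNZ@Gel and -0.20 in Gel. Complex III was at -0.19 and -0.20 in CuNZ@Gel and -0.17 and -0.15 in Gel with the 2 scalings, and complex II at -0.18 in CuNZ@Gel over all members whatever their level.

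Changes that were not called turned sign as follows. Ndufb11 in Gel against Sham was 0.053 with quantile normalization, and in CuNZ@Gel against Gel 0.0995 thinned. Ndufs3 in CuNZ@Gel against Sham was 0.57 in Segment 1, 0.031 with edgeR, 0.012 with median scaling, and -0.39 to 0.20 with a specimen left out. In CuNZ@Gel against Gel, Atp5a1 was 0.014 without the shallowest area and -0.24 to 0.13 with a specimen left out, Ndufa8 was -0.38 in Segment 2, -0.18 thinned and -0.15 to 0.27 with a specimen left out, Cox7b was -0.45 to 0.0093, and Sdhb was -0.17 to 0.37.

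Same-numbered specimens did not deviate together (correlations -0.03, 0.003 and -0.03), so the numbers do not pair them. With the replicate number as a block, 5 members were called in CuNZ@Gel against Sham, 6 in Gel against Sham and 1 in CuNZ@Gel against Gel, as without it. In some areas 3 counts or fewer lay behind Ndufa8 and Ndufs3. Thinning, a single random draw, ended the calls of Atp5a1 as well, and whether depth accounts for this was not tested.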
